A study of Mus musculus with 4 samples.

Results

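The genes described here are 10 members of the fibroblast growth factor (FGF) pathway, 4 receptors and 6 feedback and target genes, out of 24453 genes in the count tables. The receptors are Fgfr1, Fgfr2, Fgfr3 and Fgfr4. The feedback and target genes are Spry1, Spry2, Spry4, Dusp6, Etv4 and Etv5. They were taken by gene symbol, and all 10 had counts in every library and were tested. RNA came from EpCAM-positive epithelial cells sorted from mouse tongues at embryonic day 16, with the circumvallate papilla region at the back cut away. There were 2 control libraries, for which the labels give no alleles, and 2 libraries labelled Ring1a/b 2KO, with the genotype Ring1a-/- Ring1bfl/fl K14-Cre+. In the latter Ring1a (Ring1) is lost in all cells by genotype, and the floxed Ring1b (Rnf2) is cut only where the Krt14 promoter drives Cre. Cells that do not use that promoter keep Ring1b. The comparison asks what Polycomb repressive complex 1 does in this epithelium.

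FGF receptors are tyrosine kinases of the cell surface that bind FGF ligands together with heparan sulphate and pass the signal through the Ras and ERK kinases to the nucleus. ERK activity raises the transcription of Etv4 and Etv5, which encode ETS transcription factors. It also raises Dusp6, which encodes a phosphatase that switches ERK off, and the Sprouty genes, whose products dampen the same pathway, so these transcripts serve as common readouts of it. In oral epithelium the pathway is best known for carrying signals from the mesenchyme underneath to the epithelial receptors. Polycomb repressive complex 1 acts mostly at promoters rich in CpG dinucleotides.

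The promoters of 4 members are shown because one belongs to the receptor that fell, Fgfr3, and the others to feedback genes that did not pass the test, so that their base composition can be compared. Each is 300 bases from RefSeq on GRCm38.p6, 250 before and 50 after the annotated start, read 5′ to 3′ on the strand of the gene, and CpG dinucleotides are in capitals. They lie at chr5:33721474-33721773 (plus strand) for the upstream start of Fgfr3, at chr3:37639697-37639996 (plus) for Spry1, at chr14:105896770-105897069 (minus) for Spry2 and at chr10:99262981-99263280 (plus) for Dusp6.
Fgfr3: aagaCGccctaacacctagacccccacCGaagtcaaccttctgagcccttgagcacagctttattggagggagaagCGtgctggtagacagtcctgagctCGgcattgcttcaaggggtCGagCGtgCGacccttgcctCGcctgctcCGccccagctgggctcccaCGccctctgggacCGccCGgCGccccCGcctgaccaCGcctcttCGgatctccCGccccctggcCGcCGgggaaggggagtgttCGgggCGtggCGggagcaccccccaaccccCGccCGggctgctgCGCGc
Spry1: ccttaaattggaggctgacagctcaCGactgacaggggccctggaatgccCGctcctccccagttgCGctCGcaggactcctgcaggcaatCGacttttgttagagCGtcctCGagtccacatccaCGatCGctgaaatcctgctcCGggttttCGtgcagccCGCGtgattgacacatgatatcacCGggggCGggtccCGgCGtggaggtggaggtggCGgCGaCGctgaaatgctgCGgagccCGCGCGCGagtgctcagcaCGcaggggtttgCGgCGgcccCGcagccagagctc
Spry2: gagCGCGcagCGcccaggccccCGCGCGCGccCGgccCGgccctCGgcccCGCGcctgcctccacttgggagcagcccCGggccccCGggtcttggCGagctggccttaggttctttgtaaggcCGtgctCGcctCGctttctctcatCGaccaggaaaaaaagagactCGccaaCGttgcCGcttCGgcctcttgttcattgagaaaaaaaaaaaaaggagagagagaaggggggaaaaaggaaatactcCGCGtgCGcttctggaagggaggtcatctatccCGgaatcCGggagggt
Dusp6: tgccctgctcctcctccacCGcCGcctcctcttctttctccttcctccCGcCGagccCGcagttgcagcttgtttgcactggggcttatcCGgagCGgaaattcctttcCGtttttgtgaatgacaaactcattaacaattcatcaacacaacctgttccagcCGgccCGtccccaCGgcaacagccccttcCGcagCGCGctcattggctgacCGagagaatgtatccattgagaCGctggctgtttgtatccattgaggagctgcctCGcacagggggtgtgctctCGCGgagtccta

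All 4 sequences held more CpG than the median promoter. Fgfr3 held 26 CpG dinucleotides, Spry1 29, Spry2 28 and Dusp6 19, beside a median of 7 over 32851 promoters of the same length. The share of those promoters with fewer CpG was 83.1%, 87.1%, 85.8% and 71.9% in the same order, so such counts are common. RefSeq entries matched 7 of the 10 members, with 9 starts; Fgfr1, Spry4 and Etv4 did not match. Of the 9 windows, 8 held at least the median CpG count. The second start of Fgfr3 held 30, Fgfr4 20 and the starts of Etv5 37 and 19. The exception was the entry of Fgfr2, with 4. For Fgfr2 and for the second start of Etv5, with 19, the 50 transcribed bases were in none of the gene's GENCODE transcripts. The ETS-type motif CCGGAAG, searched on both strands, was in none of the 9 windows and in 8.86% of all promoters. CAGGAAG, another ETS-type motif that shares its last bases with the first, was found once, in the Fgfr2 window, and in 13.3% of all promoters. Only these exact sequences were searched, so other ETS-type sites in the windows would have been missed. Spry1 and Spry2, neither of which passed the test, had nearly the same CpG count.

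Whole-library values frame what follows. The 4 libraries held 16256569 to 20624055 counts each. The share of Rn45s, the ribosomal RNA precursor, was 15.3% to 16.7% in control and 20.2% to 22.9% in the 2KO-labelled group. Control replicate 2 stood apart by its muscle transcripts: the 10 skeletal muscle markers summed to 364 CPM there and to 48.1 to 59.6 CPM in the other libraries. CPM is counts scaled to a common library size, here after scaling for library composition. The sorted population held its label's markers, with 10 basal keratinocyte genes summing to 12968 to 18227 CPM. The 2KO-labelled libraries did not have less of either targeted transcript. Ring1 stood at 8.57 to 9.02 CPM in control and 15.0 to 16.8 CPM in the other group (edgeR adjusted p = 0.101). Rnf2 stood at 34.0 to 51.3 CPM and 62.4 to 62.9 CPM (adjusted p = 0.126), and was called higher in the 2KO-labelled group without control replicate 2 (log2 change 0.89, adjusted p = 0.00853) and with the GC content and length offset, without the replicate block (0.0350) and with it (0.00476). Counts over a whole gene cannot reveal a deleted exon, so the genotype is unchecked and all directions below compare labelled libraries. The labels do not say whether replicates were separate embryos, so the spread behind the p-values is that of these libraries and may be technical only.

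Among the receptors Fgfr1 rose and Fgfr3 fell in the 2KO-labelled libraries, while Fgfr2, by far the most abundant, and Fgfr4, barely present, did not pass the test. Among the 6 feedback and target genes only Spry4 passed, and it rose. Of all 15336 genes tested with edgeR, 7.00% were called higher and 4.92% lower (adjusted p under 0.05), together 11.9%, and 3 of the 10 members were called. The groups did not overlap in CPM for 8 of the 10 members, as for 57.7% of all genes tested. With 2 libraries against 2, an exact permutation test of a single value cannot go below 0.333 (two-sided), so the fit across all genes carries the tests.

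**Figure D1:**
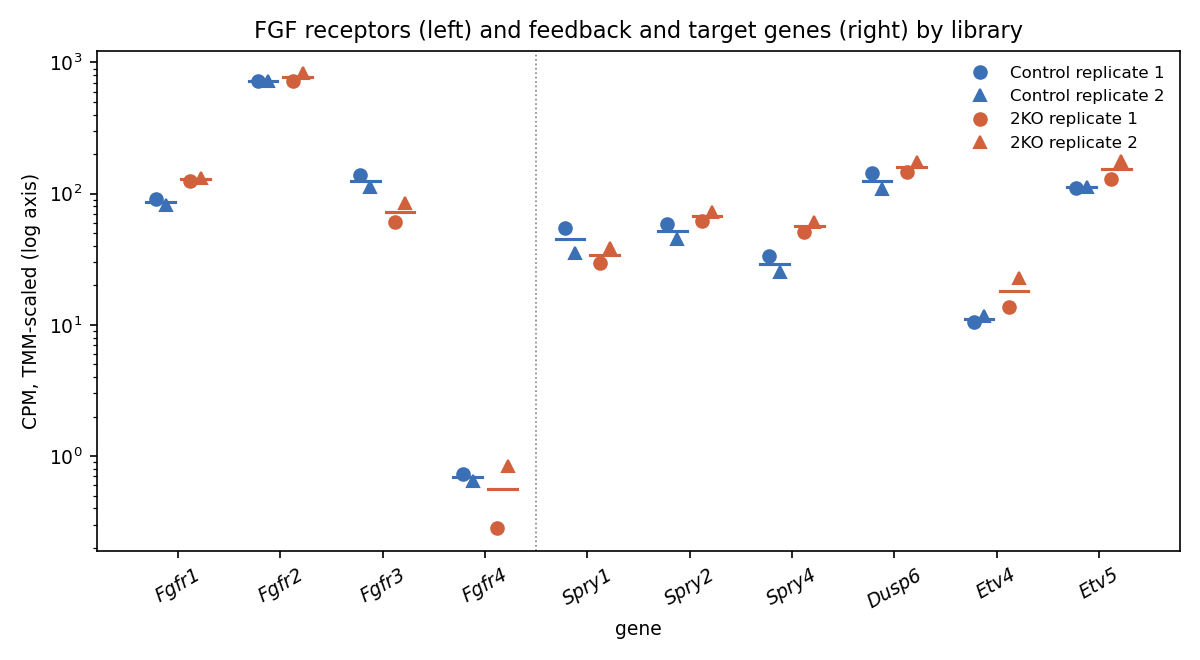
Expression of the 10 genes in each library, as CPM on a log axis; circles and triangles are replicates 1 and 2, colours are the groups, and short lines are group means (n = 2). Fgfr1 and Spry4 lie higher and Fgfr3 lower in both 2KO-labelled libraries, and Fgfr4 lies below 1 CPM throughout.

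Fgfr2 encodes the receptor whose epithelial splice form binds FGF7 and FGF10 from the mesenchyme; gene-level counts cannot separate its splice forms. It stood at 721.5 and 723 CPM in control replicates 1 and 2 and at 723 and 825 CPM in 2KO-labelled replicates 1 and 2. By CPM both control libraries and the first 2KO-labelled library were thus nearly equal, and only the other was higher. The log2 fold change was 0.10 (standard error 0.136, 95% interval -0.20 to 0.40, adjusted p = 0.690), an interval that reaches no further than a factor of 0.871 below and 1.32 above the control level. By the deposited FPKM values, explained below, both 2KO-labelled libraries were higher, at 167 and 184 against 153 and 146 in control. On filtered log2(FPKM + 1) values Fgfr2 was not called either (log2 change 0.23, limma-trend adjusted p = 0.369). In GENCODE the gene model of Fgfr2 shares 314 exonic bases on the same strand with Ctbp2.

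Fgfr1 encodes the receptor best known from mesenchymal and neural tissue. It lies on chromosome 8, from 25513654 to 25575718 on the plus strand of mm10. Its level was 91.4 and 81.3 CPM among controls, against 124 and 133 CPM in 2KO-labelled libraries, from 1385 to 2684 counts. Both 2KO-labelled libraries were above both controls, and the replicates of each group lay close together. The mean rose from 86.3 ± 7.14 CPM to 128 ± 6.28 CPM (SD, n = 2), 1.49-fold, with a log2 fold change of 0.57 (standard error 0.163, adjusted p = 0.0442). Exons of Fgfr1 share 164 bases with Gm16159 on the opposite strand. The Fgfr1 call lay close to the threshold and ended without control replicate 2, the library with muscle transcripts (log2 change 0.50, adjusted p = 0.0931), without 2KO-labelled replicate 1 (0.115) or 2 (0.223), after an offset for GC content and length (log2 change 0.34, adjusted p = 0.190), and on FPKM values. The sum of 15 markers of mesenchyme also differed, with 582 and 682 CPM among controls, against 808 and 878 CPM in 2KO-labelled libraries. Of the 14 tested, 2 were called higher and 1 (Postn) lower. The 2 were Col5a1, with means of 81.2 and 171 CPM, and Fn1, with 124 and 224 CPM, and much of the rise of the sum was theirs. Of the 14 fitted values 9 were positive and 5 negative, so the markers did not move as a set. None of the 15 markers was at 0 counts in every library. Their part in the Fgfr1 result was not tested, and in bulk RNA fewer cells of a type and less RNA per cell cannot be told apart.

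Fgfr3 encodes a receptor that restrains bone growth and is also expressed in stratified epithelia. It lies on chromosome 5, from 33721674 to 33737068 on the plus strand. It stood at 138 and 112 CPM among controls, against 61.3 and 84.9 CPM in 2KO-labelled libraries. Both of the latter were below both controls, with a wider spread inside each group than for Fgfr1. The mean fell from 125 ± 18.6 CPM to 73.1 ± 16.7 CPM (SD, n = 2), 1.71-fold lower, with a log2 fold change of -0.77 (standard error 0.200, adjusted p = 0.0305). The call held without control replicate 2 (log2 change -0.91, adjusted p = 0.00158), and ended without 2KO-labelled replicate 1 (log2 change -0.56, adjusted p = 0.189) and on FPKM values. Fgfr3 shares 998 exonic bases with G630022F23Rik on the opposite strand, and the strand setting of the counting is not given in the sources used here.

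Differentiated keratinocyte markers were also lower in the 2KO-labelled libraries. Of 10 suprabasal markers 8 fell and none rose, and their sum was 8377 and 6248 CPM in control against 2521 and 1818 CPM in the 2KO-labelled libraries. In control both Fgfr3 and this sum were higher in replicate 1. Inside the 2KO-labelled group the sum was higher in replicate 1, but Fgfr3 in replicate 2 (61.3 and 84.9 CPM in replicates 1 and 2). Krt13, a main suprabasal keratin of the mouth, fell from a mean of 1152 ± 292 CPM to 172 ± 95.2 CPM (adjusted p = 0.000491). Of 10 basal markers 2 fell and none rose, with sums of 18227 and 15151 CPM against 12968 and 13722 CPM. Of the 10 fitted values 4 were positive and 6 negative. Krt5, 1 of the 2 that fell, lost its call with upper-quartile scaling (edgeR adjusted p = 0.0558) and on FPKM values. It also lost its call without control replicate 1 (log2 change -0.27). Whether these shifts contribute to the Fgfr3 value was not tested.

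Fgfr4, a receptor known from liver and developing muscle, had 15 and 11 counts in control and 5 and 17 counts in the 2KO-labelled libraries. These are 0.735 and 0.645 CPM against 0.284 and 0.841 CPM, and the lowest and highest values both belong to the 2KO-labelled group. Exact Poisson 95% intervals, which cover counting error only, ran from 0.0921 to 0.662 CPM for the lowest library and from 0.490 to 1.35 CPM for the highest. A difference between the groups was not detectable at this depth (log2 change -0.29, 95% interval -2.92 to 2.35, edgeR adjusted p = 0.908).

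**Figure D2:**
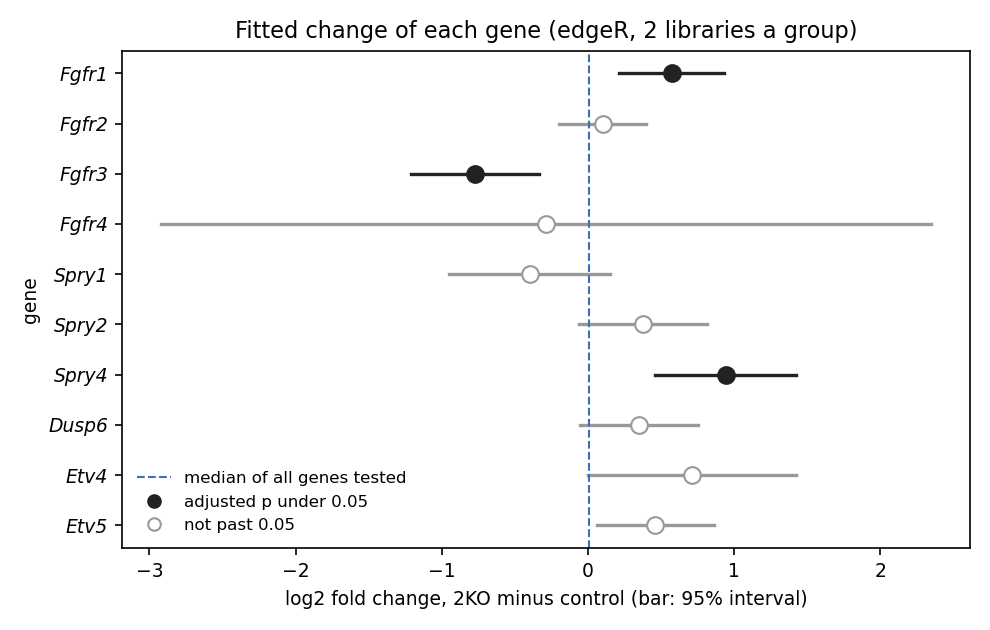
Fitted log2 fold change of each gene, 2KO minus control, with its 95% interval (edgeR, 2 libraries in each group); filled points have an adjusted p under 0.05 and the dashed line is the median of all genes tested, 0.01. Fgfr1 (0.57) and Spry4 (0.94) lie to the right and Fgfr3 (-0.77) to the left of it.

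Levels of different genes can be compared only per transcript length, for which the deposited FPKM values (fragments per kilobase of transcript, scaled for library size) were used. Fgfr2 made up 73.1% and 74.3% of the summed FPKM of the receptors in control and 78.6% and 78.2% in the 2KO-labelled libraries. Fgfr3 came next in control, with 18.1% and 16.8%, and Fgfr1 after it, with 8.63% and 8.78%. In the 2KO-labelled libraries this order was turned: Fgfr1 held 12.9% and 12.1% and Fgfr3 8.39% and 9.54%. The FPKM of Fgfr1 was thus 0.477 and 0.523 times that of Fgfr3 in control and 1.54 and 1.27 times in the 2KO-labelled libraries. This ratio sets the receptor called higher over the one called lower, so it repeats those calls and is no separate result. Fgfr4 held at most 0.153% in any library. The summed level of the receptors was 209 and 196 FPKM in control and 213 and 235 FPKM in the 2KO-labelled libraries.

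**Figure D3:**
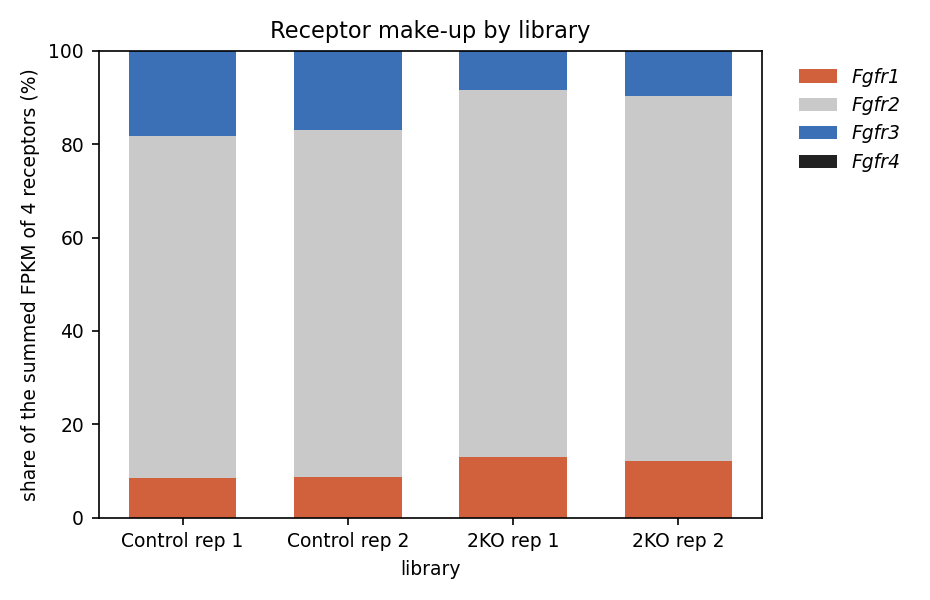
Share of each receptor in the summed FPKM of the 4 receptors, in percent, for each library; the share of Fgfr4 is too small to see. The Fgfr3 share is 16.8% to 18.1% in control and 8.39% to 9.54% in the 2KO-labelled libraries, and that of Fgfr1 is the larger of the 2 only in the latter.

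Spry4, one of the Sprouty feedback inhibitors, stood at 33.3 and 25.2 CPM among controls, against 51.2 and 61.3 CPM in 2KO-labelled libraries, from 430 to 1240 counts. Both 2KO-labelled libraries were well above both controls. The mean rose from 29.3 ± 5.73 CPM to 56.2 ± 7.21 CPM (SD, n = 2), 1.92-fold, with a log2 fold change of 0.94 (standard error 0.220, adjusted p = 0.0200). The call ended without 2KO-labelled replicate 2 (log2 change 0.80, adjusted p = 0.0990) and on FPKM values, and held without control replicate 2 (log2 change 0.76, adjusted p = 0.0328).

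Spry2 and Spry1 encode the other Sprouty proteins measured here, and neither passed the test. Spry2 stood at 58.2 and 45.4 CPM among controls, against 61.5 and 73.1 CPM in 2KO-labelled libraries, with log2 fold change 0.38 (95% interval -0.06 to 0.81, adjusted p = 0.251). Spry1 stood at 54.3 and 35.6 CPM among controls, against 29.7 and 38.5 CPM in 2KO-labelled libraries, so that its groups overlapped, with log2 fold change -0.40 (95% interval -0.95 to 0.15, adjusted p = 0.337). Its fitted value was -0.04 without control replicate 1 and -0.66 without control replicate 2, so that its size rested on which control was used. Spry2 was called higher in 1 alternative, the GC content and length offset with the replicate block (log2 change 0.58, adjusted p = 0.0457). Inside each library the FPKM of Spry4 was 0.254 and 0.285 times that of Spry1 in control and 0.706 and 0.658 times in the 2KO-labelled libraries. The FPKM of Spry2 over Spry1 was 0.902 and 1.01 in control and 1.79 and 1.57 in the 2KO-labelled libraries. Spry1 was level with Spry2 in control and lower than it in both 2KO-labelled libraries. Exons of Spry1 share 710 bases with the predicted gene Gm42922 on the opposite strand.

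Dusp6, the ERK phosphatase gene, was the most abundant of the feedback genes by FPKM. It stood at 144 and 108 CPM among controls, against 147 and 174 CPM in 2KO-labelled libraries, with log2 fold change 0.35 (95% interval -0.05 to 0.75, adjusted p = 0.247). The first control and the first 2KO-labelled library were nearly equal. Without control replicate 1 Dusp6 was called higher (log2 change 0.59, adjusted p = 0.0290).

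Etv5 and Etv4 encode the ETS factors induced by FGF signalling. Etv5 stood at 111 and 112 CPM among controls, against 129 and 178 CPM in 2KO-labelled libraries, with log2 fold change 0.46 (95% interval 0.06 to 0.86, adjusted p = 0.126). Etv4 stood at 10.5 and 11.6 CPM among controls, against 13.7 and 22.6 CPM in 2KO-labelled libraries, with log2 fold change 0.71 (95% interval 0.002 to 1.42, adjusted p = 0.179). For both genes the controls were close together, and 2KO-labelled replicate 2 was far above replicate 1. Their 95% intervals lay above 0 although neither passed after adjustment over all genes.

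Set side by side, the feedback and target genes had a median log2 fold change of 0.42 and 5 of 6 positive values, and the receptors a median of -0.09 and 2 of 4 positive values, beside a median of 0.01 over all genes tested. Apart from Spry1, the fitted values of the feedback and target genes lay between 0.35 and 0.94. Summed FPKM of the 6 feedback and target genes was 152 and 120 in control and 155 and 188 in the 2KO-labelled libraries. Divided by the receptor sum of the same library this gave 0.730 and 0.611 in control and 0.730 and 0.798 in the 2KO-labelled libraries. By FPKM the first library of each group thus had nearly the same ratio. The same ratio from read counts was 0.432 and 0.369 in control and 0.475 and 0.525 in the 2KO-labelled libraries. No test was run on these sums.

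By FPKM the order of levels in control was Fgfr2 (149 ± 4.67, SD, n = 2), Dusp6 (49.1 ± 9.73), Fgfr3 (35.4 ± 3.40), Etv5 (28.1 ± 0.118), Spry1 (24.3 ± 7.14), Spry2 (22.9 ± 5.01), Fgfr1 (17.6 ± 0.544), Spry4 (6.48 ± 1.40), Etv4 (5.29 ± 0.411) and Fgfr4 (0.258 ± 0.0580). Neighbours whose library values overlapped were Etv5 with Spry1, Spry1 with Spry2, and Spry4 with Etv4. In the 2KO-labelled libraries the order was Fgfr2 (175.5 ± 11.8), Dusp6 (66.6 ± 7.54), Etv5 (38.3 ± 8.04), Spry2 (29.2 ± 1.06), Fgfr1 (27.96 ± 0.636), Fgfr3 (20.1 ± 3.24), Spry1 (17.5 ± 2.28), Spry4 (11.9 ± 0.950), Etv4 (7.78 ± 3.02) and Fgfr4 (0.205 ± 0.217). There only Fgfr3 and Spry1 overlapped as neighbours. Fgfr1 moved from the seventh to the fifth place, and Fgfr3 from the third to the sixth.

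Some other feedback genes of the pathway rose as Spry4 did. Of 14 tested from a list of 15, 5 rose, none fell and 9 did not pass, with a median log2 fold change of 0.37. The summed level of this list did not separate the groups, at 2142 and 1657 CPM among controls, against 1754 and 1954 CPM in 2KO-labelled libraries. Of the 14 fitted values 12 were positive and 2 negative. Dusp1, picked out after its values were seen, had means of 1012 and 729 CPM and was not called (log2 change -0.47, edgeR adjusted p = 0.129). Dusp9 and Dusp4, phosphatases of the same family as Dusp6, rose from a mean of 5.71 ± 2.05 CPM to 17.5 ± 3.62 CPM (log2 change 1.62, adjusted p = 0.0190) and from a mean of 10.4 ± 6.35 CPM to 30.3 ± 4.11 CPM (log2 change 1.54, adjusted p = 0.0255). Dusp7, an ERK phosphatase of far higher level, rose from a mean of 154 ± 41.9 CPM to 253 ± 12.8 CPM (adjusted p = 0.0344). Spred3, of the Sprouty-related family, and Il17rd (Sef), an inhibitor at the receptor, rose from a mean of 12.5 ± 1.02 CPM to 28.3 ± 5.50 CPM (adjusted p = 0.0180) and from a mean of 8.84 ± 1.22 CPM to 18.8 ± 1.29 CPM (adjusted p = 0.0401). Spry3 had 0 counts in every library. Of the 5, only the Dusp4 call held with each library left out in turn; Spred3 and Dusp9 lost theirs without 2KO-labelled replicate 2 (0.139 and 0.102), and Dusp7 and Il17rd theirs without that library (0.0558 and 0.111) and without control replicate 2 (0.0882 and 0.0611), Il17rd also without 2KO-labelled replicate 1 (0.196). The count of genes called higher in this list was 3 without control replicate 2, 1 without 2KO-labelled replicate 2, 3 after the GC content and length offset, and 0 on FPKM values.

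Calls were few in the kinase chain between the receptors and these genes, as over all genes tested, where 7.00% were called higher and 4.92% lower. Of 21 adaptors and members of the ERK cascade, all tested, none rose, 1 fell and 20 did not pass, with a median log2 fold change of -0.03. The gene that fell was Hras, a Ras GTPase, from a mean of 103 ± 4.55 CPM to 63.9 ± 5.09 CPM (log2 change -0.69, adjusted p = 0.0251), a call that ended without 2KO-labelled replicate 1 (0.159) and on FPKM values.

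Of 12 immediate early genes that ERK can induce, 5 rose, none fell and 7 did not pass, with a median log2 fold change of 0.67. Egr3, a zinc-finger factor, rose from a mean of 57.3 ± 18.7 CPM to 200.3 ± 23.8 CPM (log2 change 1.81, adjusted p = 0.000589) and Phlda1 from a mean of 46.3 ± 1.71 CPM to 127 ± 32.0 CPM (log2 change 1.46, adjusted p = 0.00121). Egr1, Egr2 and Ier3 were also called higher, by 0.67, 0.86 and 0.67 on the log2 scale. The Ier3 call ended without control replicate 2 (adjusted p = 0.0953) and without 2KO-labelled replicate 1 (0.106). Many stimuli besides FGF induce these genes. On filtered FPKM values 2 of the 12, Egr3 and Phlda1, were called.

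Heparan sulphate chains hold FGF on its receptor. Of 19 genes tested from a list of 20 proteoglycans and sulphate-modifying enzymes, 7 rose, 1 fell and 11 did not pass, with a median log2 fold change of 0.49. Sulf2 and Sulf1, sulphatases that trim sulphate groups from the chains outside the cell, rose from a mean of 67.2 ± 15.2 CPM to 321 ± 21.1 CPM (log2 change 2.26, adjusted p = 7.6e-05) and from a mean of 7.97 ± 3.995 CPM to 50.3 ± 2.30 CPM (log2 change 2.66, adjusted p = 0.000598). Hs6st2, which adds sulphate groups, rose from a mean of 1.87 ± 1.26 CPM to 11.6 ± 1.38 CPM, and Gpc6, a glypican, from a mean of 57.3 ± 0.819 CPM to 135 ± 20.3 CPM (adjusted p = 0.0122 and 0.00134). Hspg2, the basement membrane proteoglycan perlecan, rose from a mean of 284 ± 2.67 CPM to 530 ± 105 CPM (log2 change 0.90, adjusted p = 0.00583), and the call ended after the GC content and length offset (log2 change 0.25, adjusted p = 0.338). Sdc1, the main syndecan of epithelia, fell from a mean of 426 ± 48.2 CPM to 286 ± 11.0 CPM (adjusted p = 0.0297), and this call ended without control replicate 1 (0.0726), without 2KO-labelled replicate 1 (0.0573) or 2 (0.111), and on FPKM values. After the offset 4 genes of the list were called higher, and on filtered FPKM values 3, namely Sulf1, Sulf2 and Gpc6.

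**Figure D4:**
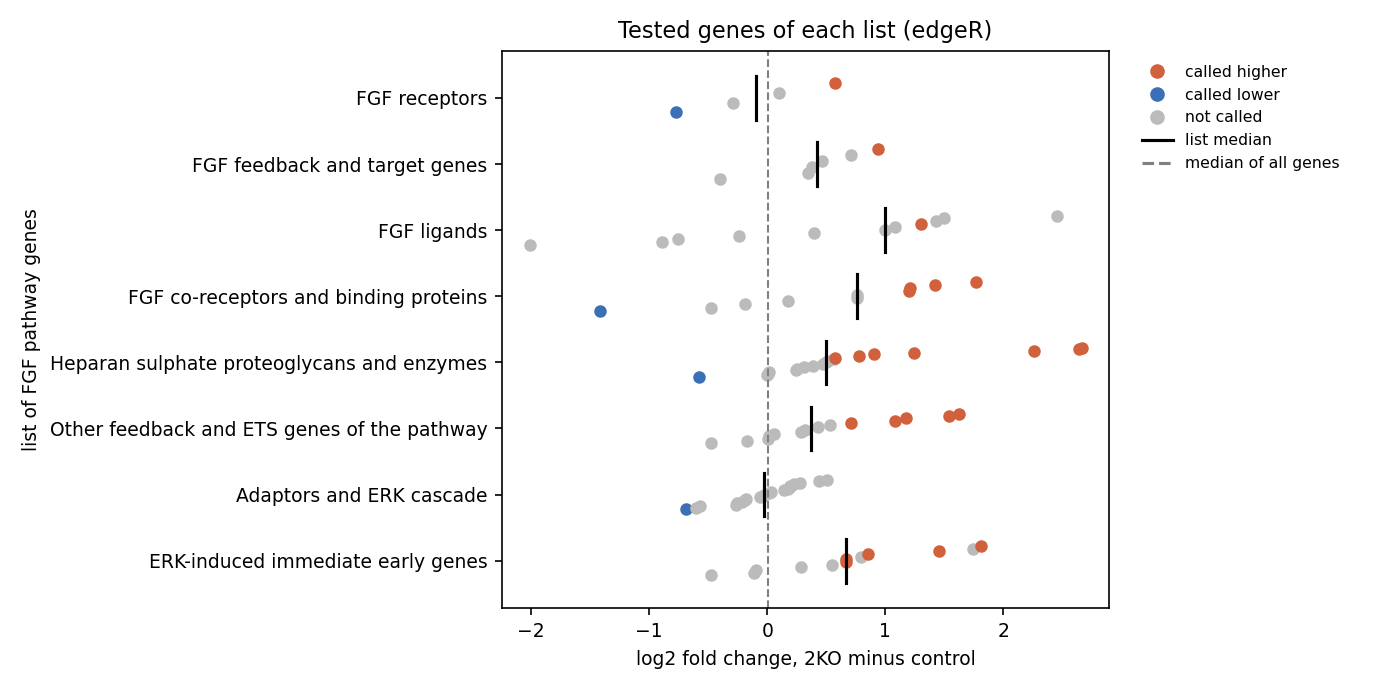
Log2 fold change, 2KO minus control, of each tested gene of the FGF pathway, by list (edgeR); orange points were called higher, blue lower and grey not called, black bars are list medians and the dashed line is the median of all genes tested. Sulf1 and Sulf2 (2.66 and 2.26) lie far to the right, and the adaptors and ERK cascade lie around 0.

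Among 10 tested co-receptors and binding proteins, from a list of 12 of which 11 symbols were found, 4 rose, 1 fell and 5 did not pass. Flrt1 and Flrt3, membrane proteins that bind FGF receptors, rose from a mean of 25.2 ± 7.43 CPM to 85.5 ± 9.81 CPM (log2 change 1.76, adjusted p = 0.000856) and from a mean of 59.8 ± 2.05 CPM to 138 ± 8.99 CPM (log2 change 1.21, adjusted p = 0.00108). Nrp1 and Nrp2, neuropilins better known as semaphorin and VEGF receptors, rose by 1.42 and 1.20 on the log2 scale (adjusted p = 0.0112 and 0.0209), and the Nrp2 call ended without 2KO-labelled replicate 1 (0.131). Both calls ended on FPKM values (adjusted p = 0.0718 to 0.143 for Nrp1 and 0.0967 to 0.177 for Nrp2). Fgfbp1, a secreted carrier that releases FGFs from heparan sulphate, fell from a mean of 107 ± 16.4 CPM to 40.2 ± 3.42 CPM (log2 change -1.42, adjusted p = 0.000900). Fgfrl1, a receptor without a kinase domain that was picked out after its values were seen, stood at 22.4 ± 2.03 and 25.3 ± 5.03 CPM (adjusted p = 0.701). The summed level of this list did not separate the groups, at 823 and 794 CPM among controls, against 821 and 766 CPM in 2KO-labelled libraries.

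Ligand genes were low in these cells. Of 22 FGF ligand genes 11 were tested, and 1 was called higher and none lower. That gene was Fgf11, from a mean of 11.4 ± 2.37 CPM to 28.2 ± 2.68 CPM (log2 change 1.30, adjusted p = 0.0122). Fgf11 to Fgf14 encode factors that stay inside the cell and act mainly on sodium channels, not on FGF receptors. This call ended on FPKM values (adjusted p = 0.0603 to 0.127). The other ligand genes named here were singled out after their values were seen. Fgf12 and Fgf13, relatives of Fgf11, had log2 fold changes of 1.497 and 1.00 and did not pass (adjusted p = 0.0874 and 0.113). Fgf12 was called higher in 6 of the 17 alternatives, among them DESeq2 (0.0445), limma-voom (0.0311) and the fit without control replicate 2 (log2 change 2.565, adjusted p = 0.000406). Fgf13 was called higher in 2, without control replicate 2 (0.0230) and with the GC content and length offset and the replicate block together (0.0343). Fgf1, which binds all the receptors, stood at 5.98 and 9.04 CPM among controls, against 17.3 and 14.4 CPM in 2KO-labelled libraries (log2 change 1.08, adjusted p = 0.0690), and was called higher in 3 alternatives, among them without control replicate 2 (0.0133). Fgf7 and Fgf10, mesenchymal ligands of the epithelial form of Fgfr2, reached at most 1.82 and 1.47 CPM in any library. Fgf7 stood at 1.72 and 1.82 CPM among controls, against 0.624 and 0.247 CPM in 2KO-labelled libraries. It was not called (log2 change -2.01, edgeR adjusted p = 0.245). Fgf18 and Fgf9 were highest in control replicate 2, the library with muscle transcripts, at 19.5 and 9.15 CPM, beside 5.78 to 11.8 and 0.931 to 3.01 CPM in the others.

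Markers of other cell types had the following values beside these lists, and their part in the lists' values was not tested. The 10 endothelial markers, none called, summed to 35.9 and 29.1 CPM among controls, against 53.9 and 74.95 CPM in 2KO-labelled libraries. The 10 markers of neurons and glia summed to 43.4 to 53.5 CPM over all libraries, with 1 called higher and 1 lower. Markers of taste bud and Merkel cells summed to 106 and 124 CPM against 172 and 178 CPM, with 2 of 8 tested called higher. These were Prox1, with means of 17.2 and 51.0 CPM, and Piezo2, with 18.2 and 39.6 CPM. Of the 8 fitted values 6 were positive and 2 negative. The 2 negative ones were Krt8, with means of 28.1 and 28.0 CPM, and Sox2, with 34.7 and 30.2 CPM. Blood and immune markers summed to 31.3 and 23.6 CPM against 52.4 and 44.1 CPM, with 1 of 5 tested called higher. That gene, Cd68, made up most of each sum, at 21.3 and 11.9 CPM among controls, against 47.2 and 39.0 CPM. Of the 5 fitted values 2 were positive and 3 negative, with a median log2 fold change of -0.62, so the sum does not describe the list. The globin genes Hba-a1 and Hbb-bs had 0 counts in every library and yet FPKM values of 13.7 to 86.2, so for these the count and FPKM tables differ.

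**Figure D5:**
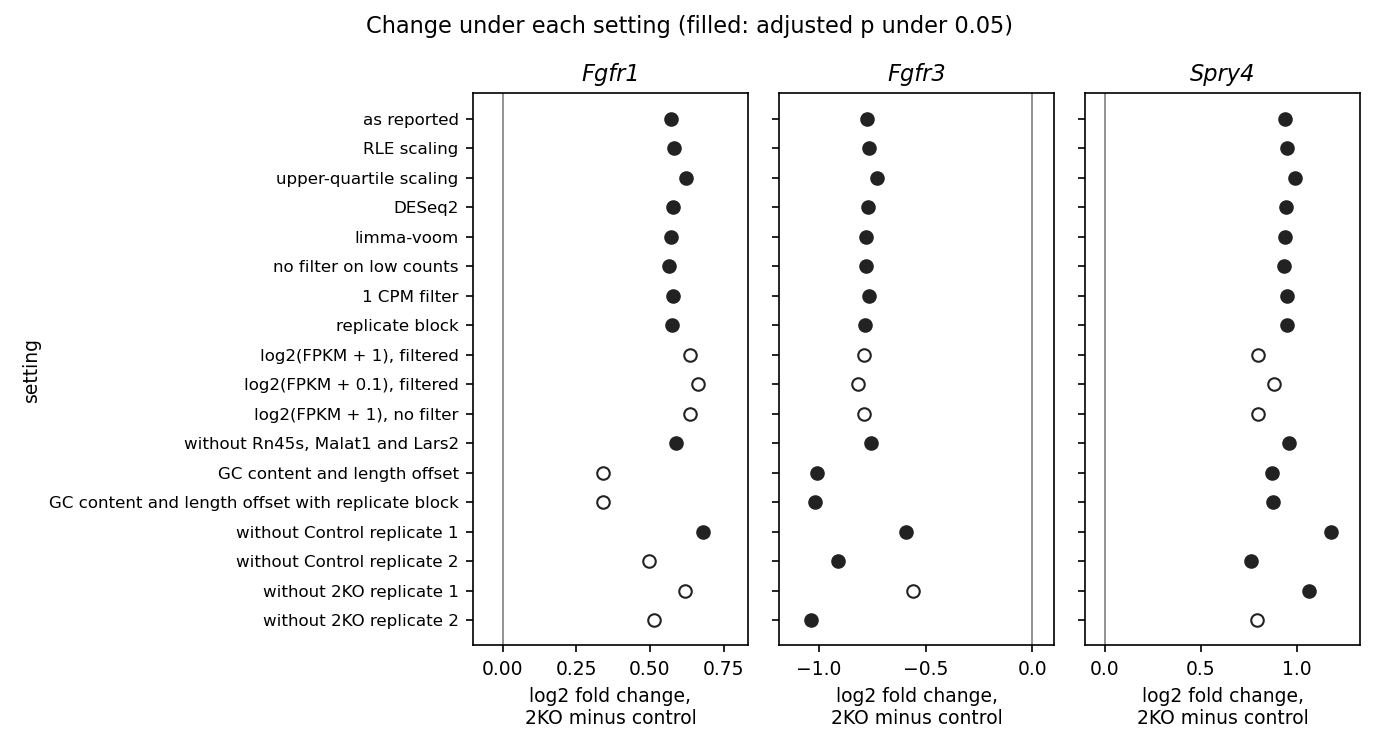
Log2 fold change, 2KO minus control, of Fgfr1, Fgfr3 and Spry4 as reported and under each alternative setting; filled points have an adjusted p under 0.05. Each gene kept its sign in all 17 alternatives, and the call held in 9 of them for Fgfr1, in 13 for Fgfr3 and in 13 for Spry4.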

How the data were processed

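Sorted E16 tongue epithelium was measured by RNA-seq from amplified total RNA. Per the file headers and values, the authors deposited a whole-number read count per gene and library, and FPKM values for the same libraries. Per the submitters' processing notes, the tools were HTSeq 0.6.1, Cufflinks 2.2.1, TopHat2 2.0.13 and DESeq2 1.6.3, on mm10. Which of them made which table is not given in the sources used here, nor are annotation or strandedness. Amplified reads are not independent molecules.

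Counts were fitted across all genes with edgeR 4.0.16 in R 4.3.3 (TMM scaling, filterByExpr, two-sided quasi-likelihood test of genotype, Benjamini-Hochberg adjustment, threshold 0.05); 15336 genes passed the filter. Standard errors are the log2 fold change over the root of F, and 95% intervals use its degrees of freedom. The steps were checked on simulated counts. Alternatives used RLE or upper-quartile scaling, DESeq2 1.42.0, limma-voom (limma 3.58.1), other filters, a replicate block, limma-trend on log2 FPKM with pseudocounts of 1 and 0.1 and a minimum group mean of 0.5 FPKM, removal of Rn45s, Malat1 and Lars2, a GC content and length offset, and each library left out. The counts of each pathway list under these alternatives were added after seeing the data. Gene positions are from GENCODE M21 (mm10). Members, lists and the naming rule were chosen with earlier results of these data known. The rule names the targeted genes, all members, up to 6 called genes of each pathway list by smallest p, and the most abundant markers, of which those beside a result are printed.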

Additional observations from a re-analysis of the deposited data

How the results depend on the processing

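Each of the 10 members except Fgfr2 and Fgfr4 kept its sign in all 17 alternatives. Of all genes, 1073 were called higher and 754 lower, and of the members 2 and 1. On log2(FPKM + 1) with a filter these counts were 474, 172, 0 and 0, on log2(FPKM + 0.1) 413, 158, 0 and 0, and on log2(FPKM + 1) without a filter 0 in all 4, with limma-trend; at an unadjusted p under 0.05 the last gave 2336 higher and 1428 lower. The share of calls that were higher was 58.7%, and 73.4% and 72.3% on the filtered FPKM values. The adjusted p of Fgfr1, Fgfr3 and Spry4 was then 0.0607 to 0.154, while their log2 fold changes were 0.64 to 0.66, -0.82 to -0.79 and 0.80 to 0.88. Without a filter on low counts 1242 genes were called lower, and with the GC content and length offset and the replicate block together 1176. With the offset alone 1 member was called higher. With each library left out in turn, 839 to 1643 genes were called higher and 537 to 1104 lower, and 0 to 3 members higher and 0 to 1 lower; the extremes for all genes called higher were without 2KO-labelled replicate 2 and without control replicate 1. A group with 1 library left is assumed to vary like the other.

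Replicate numbers did not pair the libraries: deviations of same-numbered libraries from their group means had a correlation of -0.02 across genes. With the replicate block 1156 genes were called higher and 880 lower, and the same number of members, 2 and 1.

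Alternatives gene by gene were run on 48 named genes, and with 1 library left out the sign turned for 7 of these. Fgfr2 ranged from -0.0062 to 0.19 (the lowest without 2KO-labelled replicate 2) and Fgfr4 from -1.27 to 0.28 (the highest without 2KO-labelled replicate 1). Turned without control replicate 2, Ttn ranged from -2.42 to 0.27, Fgf9 from -1.73 to 1.54 and Fgf18 from -0.85 to 0.89. Fgf10 ranged from -2.71 to 2.15, turned without that library and without 2KO-labelled replicate 1 (0.0236), and Fgfrl1 from -0.0484 to 0.36, turned without 2KO-labelled replicate 2. With limma-voom Fgf9 (0.0091) and Fgf18 (0.0765) turned, with the offset Fgfrl1 (-0.0104), and with the offset and the replicate block Fgf9 (0.0105) and Fgfrl1 (-0.0204). None of the turned values passed the test, nor did these genes as reported. The cause was not tested. Depth limits Fgfr4 alone among the members.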
